A study of Mus musculus with 4 samples.

Results

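The 9 cardiac transcription factors and cofactors described here are Isl1, Smarcd3, Gata4, Gata6, Nkx2-5, Tbx5, Tbx20, Hand2 and Mef2c. They were taken as every non-control probe whose gene name in the scanner files is one of these symbols, which gave 18 of the 41174 non-control probes and 9 of the 21389 genes named on the array. Of the 18 probes, 12 were bright enough to test, among 21940 tested probes in all, and each of the 9 genes had at least 1 of them. Tested were 1 of 2 probes for Gata4, Mef2c and Tbx5, 2 of 3 for Gata6 and 2 of 4 for Tbx20. All probes of the other members were tested. For 15 of the 18 probes the accession in the file belongs to the RefSeq gene of the same symbol; the other 3, among them the brightest Tbx20 probe, are named by the file alone.

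RNA came from pools of whole mouse embryos. One group was homozygous for Btaf1 V1330M (written Btaf1-/- by the submitters), an allele induced with the mutagen ENU that exchanges 1 amino acid, and the other was Btaf1+/+. BTAF1 uses ATP to strip TBP, the TATA-binding protein, off DNA. All animals were C57BL/6J by FVB/NJ hybrids carrying between 50 and 90% FVB/NJ, and embryos had 3 to 5 somites where possible, which the submitters placed just ahead of visible defects. In the stage_matched set, mutant and wild-type pools were paired by somite number. In the age_matched set the pairing favoured litter mates, and the pools could differ by up to 5 somites. Each array carried 1 mutant and 1 wild-type pool, labelled from 300 ng of RNA each, and each set was hybridised in both dye orientations, so that 4 arrays gave 2 pairs of pools (n = 2). Replicate 1 of each set had the mutant in Cy5 and replicate 2 had it in Cy3. The number of embryos per pool, whether any litter served both sets and whether yolk sacs were kept are not given in the sources used here. The p-values of mutant over wild type rest on the spread between the 2 set means, moderated over all tested probes. Any effect of the way the pools were matched is part of that spread. None of the p-values measures the variation between single embryos.

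The heart forms from mesoderm that leaves the primitive streak, spreads to both sides of the embryo and fuses at the midline into a beating tube. The zinc-finger factors Gata4 and Gata6 and the chromatin remodelling subunit Smarcd3 (BAF60C) act while heart mesoderm is being specified. The LIM-homeodomain factor Isl1 marks the second heart field, a pool of progenitors that goes on adding cells to the tube. Nkx2-5, Tbx5, Tbx20, Hand2 and Mef2c act together in the forming heart muscle and switch on contractile genes. These roles overlap, and several of the genes are also used elsewhere: Gata4 and Gata6 in extraembryonic endoderm, Isl1 in neurons and foregut, Mef2c in endothelium and neural crest, Tbx5 in the forelimb field. Below, Isl1, Smarcd3, Gata4 and Gata6 are called progenitor factors and the other 5 differentiation factors.

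Because the allele lies in a regulator of TBP, the DNA around the transcription starts is shown for the members whose ratio had 1 sign on all 4 arrays and whose promoter the RefSeq table (GRCm38.p6) holds. Each line runs from 60 bases before the start to 20 bases after it, 5′ to 3′ on the gene's strand. Capitals mark a match to TATAAA, the TATA box letters, or to AGATAA, letters bound by GATA factors, on either strand.
Isl1 (chr13:116309669-116309748, minus strand): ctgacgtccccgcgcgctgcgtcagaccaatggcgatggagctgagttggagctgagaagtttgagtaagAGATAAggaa
Smarcd3 (chr5:24601983-24602062, minus strand): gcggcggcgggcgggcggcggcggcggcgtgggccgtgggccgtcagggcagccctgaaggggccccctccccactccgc
Tbx20 (chr9:24774284-24774363, minus strand): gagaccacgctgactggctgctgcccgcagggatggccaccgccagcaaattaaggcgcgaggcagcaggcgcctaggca
Mef2c start 1 (chr13:83503974-83504053, plus strand): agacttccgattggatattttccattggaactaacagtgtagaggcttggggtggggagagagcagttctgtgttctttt
Mef2c start 2 (chr13:83523596-83523675, plus strand): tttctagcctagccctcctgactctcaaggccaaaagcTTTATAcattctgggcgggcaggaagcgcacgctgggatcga
Mef2c start 3 (chr13:83573547-83573626, plus strand): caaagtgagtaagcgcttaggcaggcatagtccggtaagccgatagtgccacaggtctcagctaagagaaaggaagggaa
The table matched 6 of the 9 members, with 8 starts, of which 3 belong to Mef2c. Over the full window of 300 bases, TATAAA occurred on 1 strand or the other in 13.6% of the 32851 promoters in the table. Among members it was found at 2 of the 3 Mef2c starts, 107 and 22 bases before the start, both times on the opposite strand. On the gene's own strand between 20 and 40 bases before the start, it was present in 1.99% of all promoters and at 0 of the 8 member starts. Only these exact letters were searched, and near matches were not counted. AGATAA occurred in 11.2% of all promoters. Isl1 held it from base 11 of its transcript, and Hand2 172 bases before its start on the opposite strand. AAGTGG, letters bound by NKX2 factors, was in 16.9% of all promoters and at no member start. These are matches of letters and show no binding. G and C made up 69.0% of the Isl1 window, 74.7% of the Smarcd3 window and 68.3% of the Tbx20 window. At the Mef2c starts they made up 35.7%, 47.0% and 48.3%, against a median of 52.7% over all promoters.

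Across the 4 arrays, between 52.9% and 59.6% of spots stood well above background for the mutant RNA and between 57.1% and 59.5% for the wild-type RNA. No spot was saturated, and all arrays lay on 1 slide. Btaf1 itself had log2 ratios of mutant over wild type of 0.28 and -0.12 (stage_matched) and of 0.20 and 0.05 (age_matched), in the order replicate 1, replicate 2 that is kept below (limma adjusted p = 0.555). A missense allele removes no transcript, so this level does not check the labels. All values below are such log2 ratios, 0 meaning equal levels, and the median over all 13599 tested genes was 0.02.

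Among the differentiation factors, Mef2c and Tbx5 fell in mutant embryos, as did 1 of the tested Tbx20 probes, while no progenitor factor passed the test. Of the 12 tested member probes, 3 were lower and 0 higher by limma (adjusted p under 0.05), against 3.14% of all tested probes lower, 1.66% higher and 4.81% called in either direction. At an unadjusted p under 0.05, 4 member probes were lower and 1 higher. The falls were modest, from 1.33-fold to 1.45-fold, and close to the threshold (limma adjusted p from 0.0424 to 0.0463). None of them was called without background correction or with no filter on dim probes. Isl1, a progenitor factor, was higher and narrowly missed the threshold (limma adjusted p = 0.0641). The differentiation factors Nkx2-5 and Hand2 were not called. RNA of whole embryos was measured, so that fewer cells expressing a gene and less RNA per cell cannot be told apart.

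**Figure D1:**
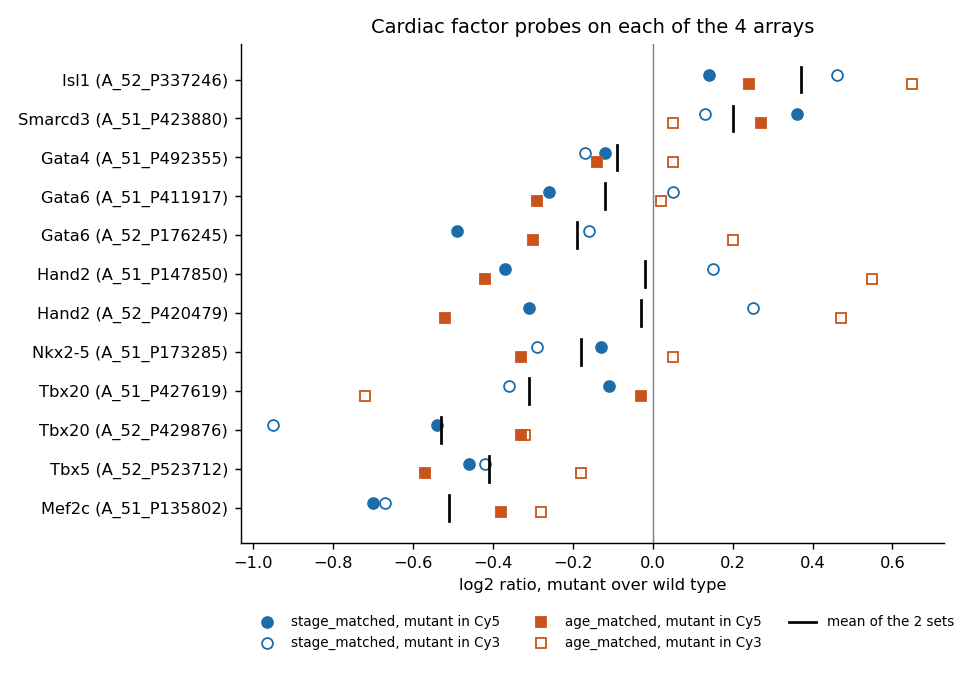
Log2 ratio of mutant over wild type (x axis) for each of the 12 tested member probes on each of the 4 arrays; circles are stage_matched and squares age_matched, filled where the mutant was in Cy5, and black bars give the mean of the sets. The probes of Mef2c, Tbx5 and Tbx20 lie below 0 on every array and those of Isl1 and Smarcd3 above 0, whereas both Hand2 probes split by dye orientation.

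Isl1 was the member with the highest mean ratio. Its probe A_52_P337246 (chromosome 13, 117088774 to 117088833, mm9) read 0.14 and 0.46 with stage_matched pools and 0.24 and 0.65 with age_matched pools. All 4 ratios were positive, with lower values where the mutant was in Cy5 (mean 0.19) than where it was in Cy3 (mean 0.56). The mean of the sets was 0.37 ± 0.10 (SD, n = 2), or 1.30-fold, with a 95% interval from 0.16 to 0.59. It did not pass the test (limma adjusted p = 0.0641). With dye orientation as a term (the replicate block, which counts the arrays of a set as separate) the adjusted p was 0.029, and with a normexp offset of 16 it was 0.0438.

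This Isl1 probe was printed as 10 spots on each array, which shows how far the reading of 1 hybridisation repeats. Spots ran from -0.15 to 0.28 on stage_matched replicate 1 and from 0.36 to 0.63 on replicate 2. On the age_matched arrays they ran from 0.14 to 0.41 and from 0.47 to 0.74, where 8 spots were used on the second array. The SD over spots lay between 0.08 and 0.14, and the means of the dye-exchanged arrays of a set differed by more than that SD. Single spots on stage_matched replicate 1 spread more widely than the array means of that set lay apart. Spots of an array share its RNA and are no replicates of the embryos.

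**Figure D2:**
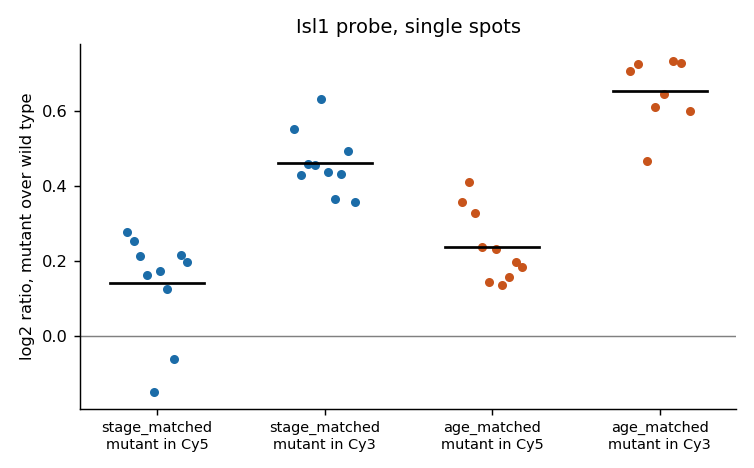
Log2 ratio of mutant over wild type for every spot of the Isl1 probe, in a column for each array, with the array mean. The spots of both Cy3-mutant arrays lie between 0.36 and 0.74, above the arrays with the mutant in Cy5 except for overlap between 0.36 and 0.41.

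Smarcd3, the heart-enriched subunit that links the BAF chromatin remodelling complex to cardiac factors, also had 4 positive ratios. Its probe A_51_P423880 (chromosome 5, between 24098592 and 24098863) read 0.36 and 0.13 with stage_matched pools and 0.27 and 0.05 with age_matched pools. Here the arrays with the mutant in Cy5 were the higher ones, opposite to Isl1. The mean was 0.20 ± 0.06 (SD, n = 2), with an interval from -0.01 to 0.42 and limma adjusted p = 0.238. Its paralogs in the same complex, Smarcd1 and Smarcd2, averaged -0.04 (limma adjusted p = 0.857) and -0.03 (limma adjusted p = 0.882).

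Gata4 and Gata6, factors of early heart mesoderm and of extraembryonic endoderm, lay near 0 by their brightest probes. Gata4 (probe A_51_P492355, chromosome 14, 63817752 to 63817773) read -0.12 and -0.17, then -0.14 and 0.05, a mean of -0.09 ± 0.07 (SD, n = 2; limma adjusted p = 0.596). A second Gata4 probe with 10 spots per array was not well above background in either dye on any array and was not tested. Gata6 (probe A_51_P411917, chromosome 18, 11085039 to 11085097) read -0.26 and 0.05, then -0.29 and 0.02, with a mean of -0.12 ± 0.02 (SD, n = 2; limma adjusted p = 0.483). Another tested Gata6 probe averaged -0.19 ± 0.20 (SD, n = 2; limma adjusted p = 0.329). The 95% intervals ran from -0.31 to 0.12 for Gata4 and from -0.33 to 0.09 for the brightest Gata6 probe. The Mef2c mean of -0.51 lay outside both, but the Mef2c interval, which reached -0.25, overlapped them. The other Gata6 probe had an interval from -0.42 to 0.05, which held the Tbx5 mean of -0.41. Gata5, the paralog expressed in heart endoderm and endocardium, averaged 0.15 (limma adjusted p = 0.43).

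Mef2c, a MADS-box factor that activates muscle genes, had the lowest mean of the members by brightest probe. Its tested probe A_51_P135802 (chromosome 13, 83802754 to 83802813) read -0.70 and -0.67 for the stage_matched pools and -0.38 and -0.28 for the age_matched pools. All 4 were negative, and both stage_matched values were lower than both age_matched ones. The mean fell by 0.51 on the log2 scale, with an SD of 0.25 (n = 2) and a 95% interval from -0.76 to -0.25, which is 1.42-fold lower (limma adjusted p = 0.0424). The call ended without background correction (adjusted p = 0.109), with no filter on dim probes (0.0707), with arrays scaled to each other (0.0514) and without 3 of the 4 arrays in turn, the highest being 0.318 without age_matched replicate 1. The related factors Mef2a and Mef2d averaged -0.07 (limma adjusted p = 0.723) and -0.20 (limma adjusted p = 0.331).

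Tbx5, a T-box factor of the first heart field and the inflow side of the tube, was lower on all 4 arrays by its 1 tested probe. Probe A_52_P523712 (chromosome 5, 120334087 to 120334146) read -0.46 and -0.42, then -0.57 and -0.18. The mean of -0.41 ± 0.04 (SD, n = 2), with an interval from -0.62 to -0.20, was 1.33-fold lower (limma adjusted p = 0.0463). This call was close to the threshold: it ended under 9 of 12 alternatives, leaving out any single array among them, with the mean between -0.51 and -0.29 over all 12.

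Tbx20, a T-box factor required for the heart tube to grow and form chambers, was read by a pair of tested probes that differed in size. The brightest (A_51_P427619, chromosome 9, 24526210 to 24526269) read -0.11 and -0.36, then -0.03 and -0.72, a mean of -0.31 ± 0.10 (SD, n = 2; limma adjusted p = 0.104). The other (A_52_P429876, chromosome 9, 24527750 to 24527809) read -0.54 and -0.95, then -0.33 and -0.32. Its mean of -0.53 ± 0.30 (SD, n = 2), with an interval from -0.80 to -0.26, was 1.45-fold lower and passed the test (limma adjusted p = 0.0439). All 8 readings were negative, but the brightest probe was lowest on an age_matched array and the other on the stage_matched arrays. The call of the second probe ended under 7 of the 12 alternatives, again with any single array left out.

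Nkx2-5, the homeodomain factor that marks cardiac cells from the crescent onward, read -0.13 and -0.29, then -0.33 and 0.05 (probe A_51_P173285, chromosome 17, 26975621 to 26975680). The mean was -0.18 ± 0.05 (SD, n = 2), with an interval from -0.39 to 0.03 and limma adjusted p = 0.297. Hand2, a bHLH factor of the second heart field and right ventricle, read -0.37 and 0.15, then -0.42 and 0.55 (probe A_51_P147850, chromosome 8, between 59801251 and 59802610). Its ratios followed the dyes: the mean was -0.40 with the mutant in Cy5 and 0.35 with it in Cy3, leaving -0.02 ± 0.13 (SD, n = 2; limma adjusted p = 0.914). A second Hand2 probe, whose listed span overlapped that of the first, split the same way. Its mean was -0.03 ± 0.01 (SD, n = 2; limma adjusted p = 0.89). Hand1, the paralog of the left side of the heart and of extraembryonic mesoderm, averaged -0.13 (limma adjusted p = 0.507).

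**Figure D3:**
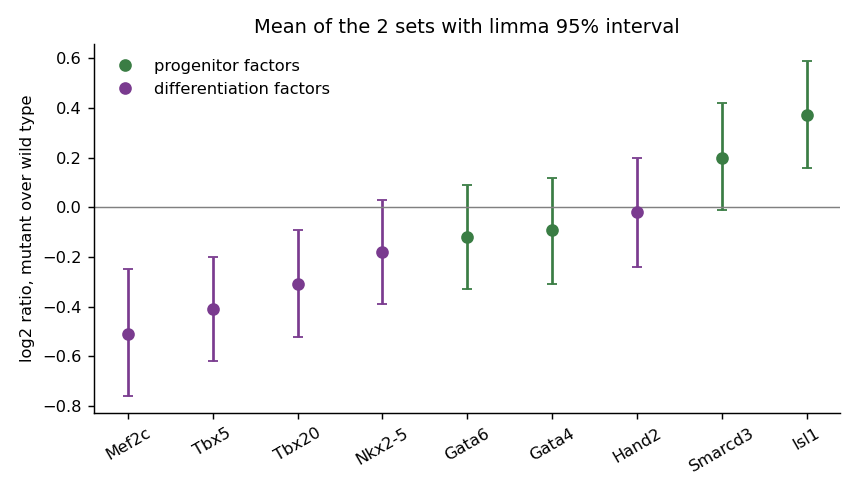
Mean log2 ratio of the sets (points, n = 2) with its limma 95% interval (bars) for the brightest tested probe of each of the 9 members, in order of the mean and coloured by role. The intervals of Mef2c, Tbx5, Tbx20 and Isl1 do not reach 0; of these, Mef2c and Tbx5 have an adjusted p under 0.05.

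From lowest to highest mean the genes ran Mef2c, Tbx5, Tbx20, Nkx2-5, Gata6, Gata4, Hand2, Smarcd3 and Isl1. Each pair of neighbours in this order overlapped in its array values. The lowest Isl1 array, at 0.14, was above every array value of Mef2c, Tbx5, Tbx20, Nkx2-5, Gata6 and Gata4, and within the range of Smarcd3 and Hand2. Of the 12 tested probes, 4 were negative on all arrays and 2 positive on all, against 15.1% and 12.5% of all tested probes. By brightest probe these were 3 genes and 2 genes of the 9, against 13.6% and 14.9% of all tested genes.

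The progenitor factors were then set against the differentiation factors within each set. In the stage_matched set the median was 0.07 over the 4 progenitor factors and -0.24 over the 5 differentiation factors. For age_matched pools the same medians were 0.06 and -0.33. The difference of these medians was 0.31 and 0.39, and 0.36 for the mean of the sets. It was positive on every array, at 0.39, 0.45, 0.42 and 0.24. Within the progenitor factors, by brightest probe, only Isl1 and Smarcd3 were above 0. By the same probes Gata4 and Gata6 lay between -0.14 and -0.05 in both sets. The other tested Gata6 probe averaged -0.33 for stage_matched pools, lower than the differentiation median of -0.24, and -0.05 for age_matched pools. With Nkx2-5 counted as a progenitor factor the difference was 0.23 and 0.31. It carries no test, because the genes were grouped with earlier results of these arrays known.

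**Figure D4:**
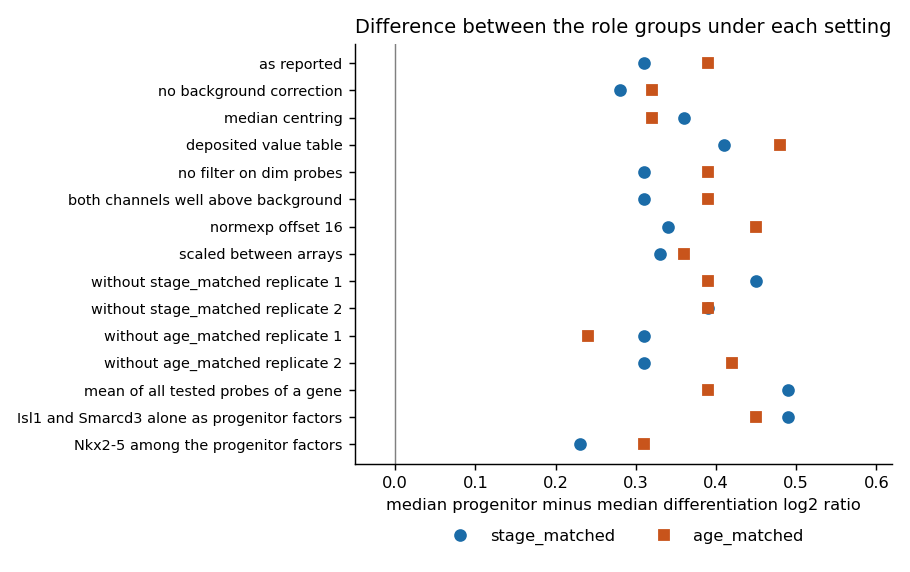
Median log2 ratio of the progenitor factors minus that of the differentiation factors in each set, as reported and under each alternative processing. The difference stays above 0 in both sets under every setting drawn.

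Whether members differed between the sets was tested in a model of the 4 arrays that holds the set and the dye orientation, where the error is the spread between dye-exchanged arrays and holds no variation between embryos. None of the 12 member probes passed (0 by limma at adjusted p under 0.05, 2 at an unadjusted p under 0.05), against 2.31% of all tested probes (1.6% higher and 0.706% lower in the age_matched set). The 2 were Mef2c, higher in the age_matched set by 0.35 (interval 0.01 to 0.70, limma adjusted p = 0.394), and the second Tbx20 probe, higher by 0.42 (interval 0.07 to 0.76, limma adjusted p = 0.256). The Isl1 difference was 0.14, with an interval from -0.20 to 0.49. Sex-linked transcripts did pass this test: Xist was higher in the age_matched set by 1.78, and Ddx3y went from 0.41 (stage_matched) to -0.85. The sex ratio of the pools and the way the pools were matched cannot be told apart in these comparisons.

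Most other cardiac regulators were not called. Of 34 tested genes in a list of 35 other cardiac transcription factors, 2 rose, 2 fell and 30 were not called. Their median was -0.04, and 7 were higher and 7 lower at an unadjusted limma p under 0.05. By gene, 2.14% of all tested genes were higher and 2.77% lower. Mesp1 rose by 0.97 ± 0.67 (SD, n = 2; limma adjusted p = 0.0315), reading 0.62 and 0.37, then 1.64 and 1.24. This gene is switched on in mesoderm that leaves the primitive streak to form the heart. The tissue behind its rise in these embryos was not tested. Foxc2, a forkhead factor of the second heart field and other mesoderm, rose by 0.47 ± 0.20 (limma adjusted p = 0.0446). Myocd (myocardin, the coactivator of SRF at muscle genes) fell by 0.72 on the log2 scale (SD 0.33; limma adjusted p = 0.0219), with -0.87, -1.04, -0.43 and -0.55 on the arrays. Irx4, a ventricular homeodomain factor, fell by 0.41 (SD 0.08; limma adjusted p = 0.0491). All 4 calls were lost with no filter on dim probes, without age_matched replicate 1 and without background correction. Over 12 alternatives Mesp1 and Myocd kept their call under 9, Irx4 under 6 and Foxc2 under 5.

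The contractile and secreted products of heart muscle, many of them targets of cardiac transcription factors, were lower. Of 23 tested heart muscle products, 14 fell and 0 rose by limma, and 0 were higher at an unadjusted p under 0.05. Their ratios had a median of -0.85, which was -0.46 over stage_matched and -1.17 over age_matched pools. Myh7, a myosin heavy chain, averaged -1.69 ± 0.35 (SD, n = 2; limma adjusted p = 0.00148) and Tnni3, cardiac troponin I, -1.62 ± 0.47 (limma adjusted p = 0.00314). Nppa, the atrial natriuretic peptide gene, averaged -1.51 ± 0.89, Gja5, a connexin, -1.50 ± 0.38, Myl2, a ventricular myosin light chain, -1.48 ± 0.57, and Actc1, cardiac actin, -1.39 ± 0.64. The ratio was lower in the age_matched set for 17 of the 23 by the limma test of the difference, against 0.706% of all tested probes, and 12 of the 14 that fell were among them. This count of 17 was 0 without background correction, 0 with median centring and 8 from the deposited value table. Mef2c and the second Tbx20 probe had their lower values in the stage_matched set, but neither difference passed (limma adjusted p = 0.394 and 0.256). The brightest Tbx20 probe was lower in the age_matched set (-0.38 against -0.24), also without passing (limma adjusted p = 0.854). The count of 14 was 3 without background correction, 3 without age_matched replicate 1 and 6 with no filter.

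**Figure D5:**
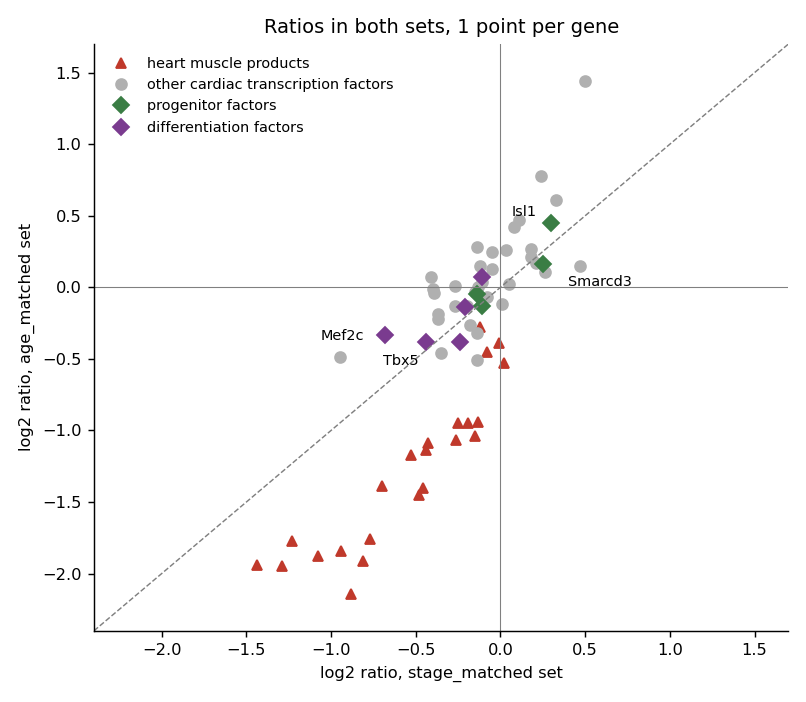
Log2 ratio of mutant over wild type in the stage_matched set (x axis) against the age_matched set (y axis), 1 point per gene, for progenitor factors, differentiation factors, other cardiac transcription factors and heart muscle products; the dashed line marks equal ratios. Isl1 and Smarcd3 are above 0 in both sets, Mef2c lies at -0.68 and -0.33 and Tbx5 at -0.44 and -0.38, and the heart muscle products reach further down on the y axis than any member.

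A pair of lists bears on the partners and inducers of the members. Of 18 tested BAF subunits, the complex to which Smarcd3 belongs, 0 rose and 0 fell by limma (1 and 2 at an unadjusted p under 0.05). Their means ran from -0.54 to 0.35, with a median of 0.04. Over 12 alternatives, 0 to 1 rose and 0 to 1 fell. Of 13 tested cardiac inducing signals, 2 rose and 0 fell by limma (4 and 1 at an unadjusted p under 0.05). These were Nodal, a TGF-beta family ligand of the primitive streak and left side, at 0.88 ± 0.42 (SD, n = 2; limma adjusted p = 0.0189), and Cer1, a secreted inhibitor of Nodal, at 0.73 ± 0.47 (limma adjusted p = 0.0364). Both calls were lost without background correction and without age_matched replicate 1, and over 12 alternatives Nodal kept its call under 10 and Cer1 under 7.

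Markers of tissues that use these factors were read beside them. Of 10 heart muscle markers, all of which are also in the list of products, 8 fell; their summed wild-type level per array was 120000 to 175000 against 42300 to 76700 in mutants (arbitrary intensity units). Of 12 markers of visceral endoderm, a tissue that expresses Gata4 and Gata6, 11 fell with a median of -1.01, and summed levels were 47800 to 80900 and 22000 to 27800. Of 9 tested gut endoderm markers 1 fell (Pyy), with summed levels of 35600 to 58400 and 31800 to 47900. Of 6 tested neuron markers of 9 listed, relevant to Isl1, none was called by limma (0, with 2 higher at an unadjusted p under 0.05), with a median of 0.00 and summed levels of 1860 to 2130 and 1760 to 2560. The neuron genes Neurod1, Lhx3 and Elavl3 were not bright enough to test. Of 10 endothelial markers 1 fell (Kdr), and of 9 neural crest markers 2 fell (Sox10 and Crabp1), both tissues that express Mef2c. The endothelial sums were 9210 to 13700 in wild type and 7270 to 12500 in mutants, and the neural crest sums 9530 to 13900 and 8180 to 10500. Within arrays, the log2 ratio of mutant to wild-type sum was -0.04, -0.22, -0.13 and -0.34 for endothelial markers. It was -0.14, -0.20, -0.40 and -0.22 for neural crest and -0.04, -0.14, -0.29 and -0.16 for gut endoderm markers. Neuron markers gave 0.03, -0.09, 0.27 and -0.08. Heart muscle sums ran from -1.51 to -0.76 and visceral endoderm sums from -1.54 to -1.12. These ratios carry no test. Without age_matched replicate 1, and without background correction, the count of heart muscle markers that fell was 1 each time, that of visceral endoderm markers 4 and 6, and those of gut endoderm, endothelial and neural crest markers 0 each time. With no filter the heart muscle count was 2 and the endothelial count 0; the latter was also 0 without age_matched replicate 2. The part of these tissues in the member ratios was not tested.

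The genes most like Isl1 by the 4 array ratios were Bloc1s1, Perp, Rab23, Deptor and Adamts20, at Euclidean distances from 0.058 to 0.108. Those most like Mef2c were Eif5, Pycard, H2-Q1, Septin3 and U2surp, at 0.09 to 0.17. Likeness over 4 arrays, of which pairs share their pools, describes these readings alone.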

How the data were processed

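Two-colour arrays were read from the scanner output, whose mean and background intensity columns are not normalized, per the file headers. The deposited value table holds the authors' log10 ratio after the scanner software's own background and dye correction, per the file headers, turned to mutant over wild type; the largest gap to the scanner output was 5e-06, and 0 columns were left unassigned. The submitters' processing notes name Feature Extraction 9.5.3, and the file headers 10.5.1.1.

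With limma 3.58.1 in R 4.3.3, marked spots were dropped, background was corrected by normexp (offset 50), dyes by loess within arrays, and log2 ratios were formed from the deposited intensity columns, turned to mutant over wild type and averaged over spots. A probe was tested if 1 of the groups was well above background on all 4 arrays. The 2 set means entered limma's moderated test against 0 (two-sided; 1 residual and 7.12 prior degrees of freedom), and p-values were adjusted by Benjamini-Hochberg over 21940 probes (threshold 0.05). The brightest tested probe stood for a gene. Positions of probes were copied from the files (mm9); names came from the RefSeq table (GRCm38.p6). The text names all members, their paralogs, up to 6 called genes per related list and direction, and the 5 genes most like Isl1 and Mef2c. Members and lists were chosen with earlier results of these data known. Scripts were tested on simulated data. In the neuron and neural crest lists, 1 marker each is not reported here.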

Additional observations from a re-analysis of the deposited data

Results flagged for a closer look

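Past the threshold, 2.31% of all tested probes differed between the sets, and none of the 12 member probes did. Of the 138 other listed genes 27 did, 22 of them lower and 5 higher in the age_matched set. Among these 27 were 17 heart muscle products and 4 sex-linked genes. The 12 that are named in the text, with the sex-linked genes, follow. Each value is the age_matched minus the stage_matched log2 ratio by limma, with an error that is technical. Mesp1 (0.94), Nodal (0.59) and Cer1 (0.67) were higher in the age_matched set. Actc1 (-0.91), Myl2 (-0.81), Tnni3 (-0.66), Nppa (-1.26) and Sox10 (-0.72) were lower there. Of the sex-linked genes, Xist was higher by 1.78, and Ddx3y (-1.26), Eif2s3y (-1.14) and Kdm5d (-0.80) were lower. Without background correction, and with median centring, none of the 12 passed (0 in both), and each kept its direction.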

How the results depend on the processing

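The 4 arrays hold 2 pairs of pools, and leaving out an array leaves its set in 1 dye orientation. Limma called 365 probes higher and 690 lower. With no filter on dim probes these counts were 209 and 386, with no background correction 20 and 42, from the authors' deposited ratios 747 and 1077, and with offset 16 they were 710 and 1259; median centring gave 120 higher, so that 12.7% of calls were higher against 34.6%, and moved the median of all genes in the age_matched set to -0.13. Leaving out an array gave 10 to 394 higher and 13 to 814 lower; 10 and 13 were without age_matched replicate 1. Replicate numbers mark dye orientation and pair no embryos; with that replicate block the counts were 733 and 1216. Of the 3 lower member probes, 0 remained without background correction, with no filter and with scaled arrays, and 0 to 1 without an array; 1 member (Isl1) was higher with offset 16 and with the block. The difference between sets called 507 probes, against 0 without background correction, 1 with median centring and 150 from the deposited table; it cannot be tested without an array, as no residual degree of freedom is left.

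The progenitor minus differentiation difference in the stage_matched and age_matched sets and their mean was 0.41, 0.48 and 0.50 from the deposited table. It was 0.49, 0.45 and 0.47 with Isl1 and Smarcd3 alone as progenitor factors. With Nkx2-5 added to the 4 progenitor factors it was 0.23, 0.31 and 0.26. With all tested probes averaged it was 0.49 (stage_matched) and 0.46 (mean). In the age_matched set it was 0.32 without background correction and with median centring, and 0.45 with offset 16. Leaving out an array gave 0.31 to 0.45, 0.24 to 0.42 and 0.33 to 0.42. Uncalled values that changed sign were Hand2 (0.04) and Mef2a (0.00) from the deposited table and, over the arrays left out, Hand2 (-0.27 to 0.22), Mef2a (-0.15 to 0.02), Smarcd1 (-0.40 to 0.33) and Smarcd2 (-0.17 to 0.11). The Isl1 (-0.07) and Nkx2-5 (-0.14) differences between sets turned with median centring, and that of Tbx5 (-0.01) with the deposited table. Over the arrays left out, these uncalled differences crossed 0 for Isl1 (-0.06 to 0.35), Smarcd3 (-0.21 to 0.03), Gata6 (-0.18 to 0.13), Nkx2-5 (-0.12 to 0.26), Tbx5 (-0.13 to 0.26), Tbx20 (-0.49 to 0.20) and Hand2 (-0.31 to 0.67), while Gata4 (0.00 to 0.20) and Mef2c (0.31 to 0.40) stayed at or above 0. The cause was not tested.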
